A study of Mus musculus with 15 samples.

Results

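The 8 genes described here, Alas1, Alas2, Alad, Uros, Urod, Cpox, Ppox and Fech, encode enzymes of haem synthesis in the mouse. They were taken as every probe set of a whole-genome Affymetrix array whose annotated gene symbol is one of the 8 names. This gave 19 of the 45096 probe sets on the array, and 8 of the 18190 genes that have a probe set with 1 symbol. The samples were hearts from males of 3 kinds, with 5 arrays each: B6C3F1 (B6C3F1/J), the first-generation hybrid of the other two kinds, and the inbred strains C3H (C3H/HeJ) and C57Bl/6 (C57BL/6J). All mice had a radiotelemetry transmitter placed in the abdomen under tribromoethanol anaesthesia at 7 weeks of age and no other treatment. They were 9 to 10 weeks old when a piece of the heart apex was taken. RNA (50 ng) from the apex was amplified through a two-cycle labelling reaction. Per the labels, no mouse gave more than 1 array.

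Haem is an iron-holding ring that carries oxygen in haemoglobin and myoglobin and electrons in the cytochromes of the respiratory chain. Its synthesis begins in the mitochondrion, where Alas1 (in most cells) or Alas2 (in red cell precursors) joins glycine to succinyl-CoA. It continues in the cytosol with Alad, Uros and Urod among others, and ends in the mitochondrion with Cpox, Ppox and Fech, the last of which inserts iron. Heart muscle, rich in mitochondria and myoglobin, makes its own haem. Inbred mouse strains have long been known to differ in the activity of the enzyme that Alad encodes.

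Levels are given as log2(signal + 16), where the signal is the deposited value returned to the linear scale, so that 1 unit is a doubling for bright probe sets and more than a doubling of the signal for dim ones. Differences were tested with limma across 23037 probe sets above a dimness filter, and a probe set was called at an adjusted p under 0.05. Of the 19 probe sets of the 8 genes, 15 passed the filter, with at least 1 for each gene. A level belongs to its own probe set and is not compared with that of another. In bulk tissue, fewer cells of a type and less RNA per cell cannot be told apart.

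Alad was higher in B6C3F1 and in C3H hearts than in C57Bl/6 hearts on both of its probe sets, by more than any other of the 8 genes. The tested probe set of Ppox, 1 probe set each of Uros, Alas1 and Cpox, and the probe set of Alas2 were lower in C3H than in C57Bl/6 hearts. Urod and Fech passed no test between the strains. To show where these genes start, the 250 bases before an annotated start are printed for Alad, whose difference between C3H and C57Bl/6 was the largest of the 15 probe sets, for Ppox, which had the largest fall, and for the red cell form Alas2. RefSeq start sites on build GRCm38.p6, a C57BL/6J genome, were found for 7 of the 8 genes, and Fech was not among them. Alad has 2 annotated starts, and the window printed is that of the outer one, chr4:62520064-62520313 on the minus strand. The window of Ppox is chr1:171281187-171281436 on the minus strand, and that of Alas2 is chrX:150547167-150547416 on the plus strand. Capitals mark matches, on either strand, to the GC box GGGCGG, the GATA sites AGATAA and TGATAA, the E-box CACGTG and the CCAAT box CCAAT.
Alad: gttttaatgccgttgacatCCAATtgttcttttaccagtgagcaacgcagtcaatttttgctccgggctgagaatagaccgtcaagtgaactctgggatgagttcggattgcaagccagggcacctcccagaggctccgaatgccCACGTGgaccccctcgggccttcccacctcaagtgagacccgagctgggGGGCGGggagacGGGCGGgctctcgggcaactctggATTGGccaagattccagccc
Ppox: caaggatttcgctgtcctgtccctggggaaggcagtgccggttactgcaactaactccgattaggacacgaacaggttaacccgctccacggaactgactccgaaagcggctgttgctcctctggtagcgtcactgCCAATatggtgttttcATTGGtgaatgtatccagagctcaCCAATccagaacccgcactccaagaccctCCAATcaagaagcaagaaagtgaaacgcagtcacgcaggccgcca
Alas2: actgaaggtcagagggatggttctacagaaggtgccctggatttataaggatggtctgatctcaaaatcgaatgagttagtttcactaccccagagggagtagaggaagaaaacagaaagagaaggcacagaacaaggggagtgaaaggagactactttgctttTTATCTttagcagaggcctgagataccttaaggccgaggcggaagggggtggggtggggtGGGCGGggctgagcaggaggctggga
The printed Alad window held 2 GC boxes, 56 and 44 bases before the start, 1 E-box at 105 bases, and 2 CCAAT boxes at 231 and 20 bases. The window of the inner Alad start, chr4:62519910-62520159, overlaps the printed one and held 6 GC boxes, some of which overlap each other, 1 E-box 28 bases and 1 CCAAT box 174 bases before that start. The Ppox window held 4 CCAAT boxes, 114, 98, 74 and 45 bases before the start, and none of the other letters. The Alas2 window held 1 GATA match at 86 bases and 1 GC box at 26 bases. No match overlapped another in the printed windows. Of the 32851 windows of the same length before mouse genes, 32.7% held a GC box, 16.6% a GATA site, 6.0% an E-box and 33.8% a CCAAT box. These shares count windows with at least 1 match, and a match describes the letters only.

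Between the inbred strains, 2 of the 15 tested probe sets were higher in C3H and 5 were lower, from 6 of the 8 genes. Over all 23037 probe sets, 6.17% were higher and 7.49% were lower. These are shares of probe sets and cannot be set against the count of genes, since a gene with several probe sets has more chances of a call. The median difference of the 15 probe sets was 0.05, against -0.02 over all probe sets, and the median size of a difference was 0.31, against 0.23. Centring each array on its own median moved the median of all probe sets to 0.09, and the calls over all probe sets to 1972 higher and 930 lower, against 1422 higher and 1725 lower as deposited. The comparisons with C57Bl/6 share the same C57Bl/6 arrays, and the comparisons with C3H share the C3H arrays, so that they are not independent of each other.

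**Figure D1:**
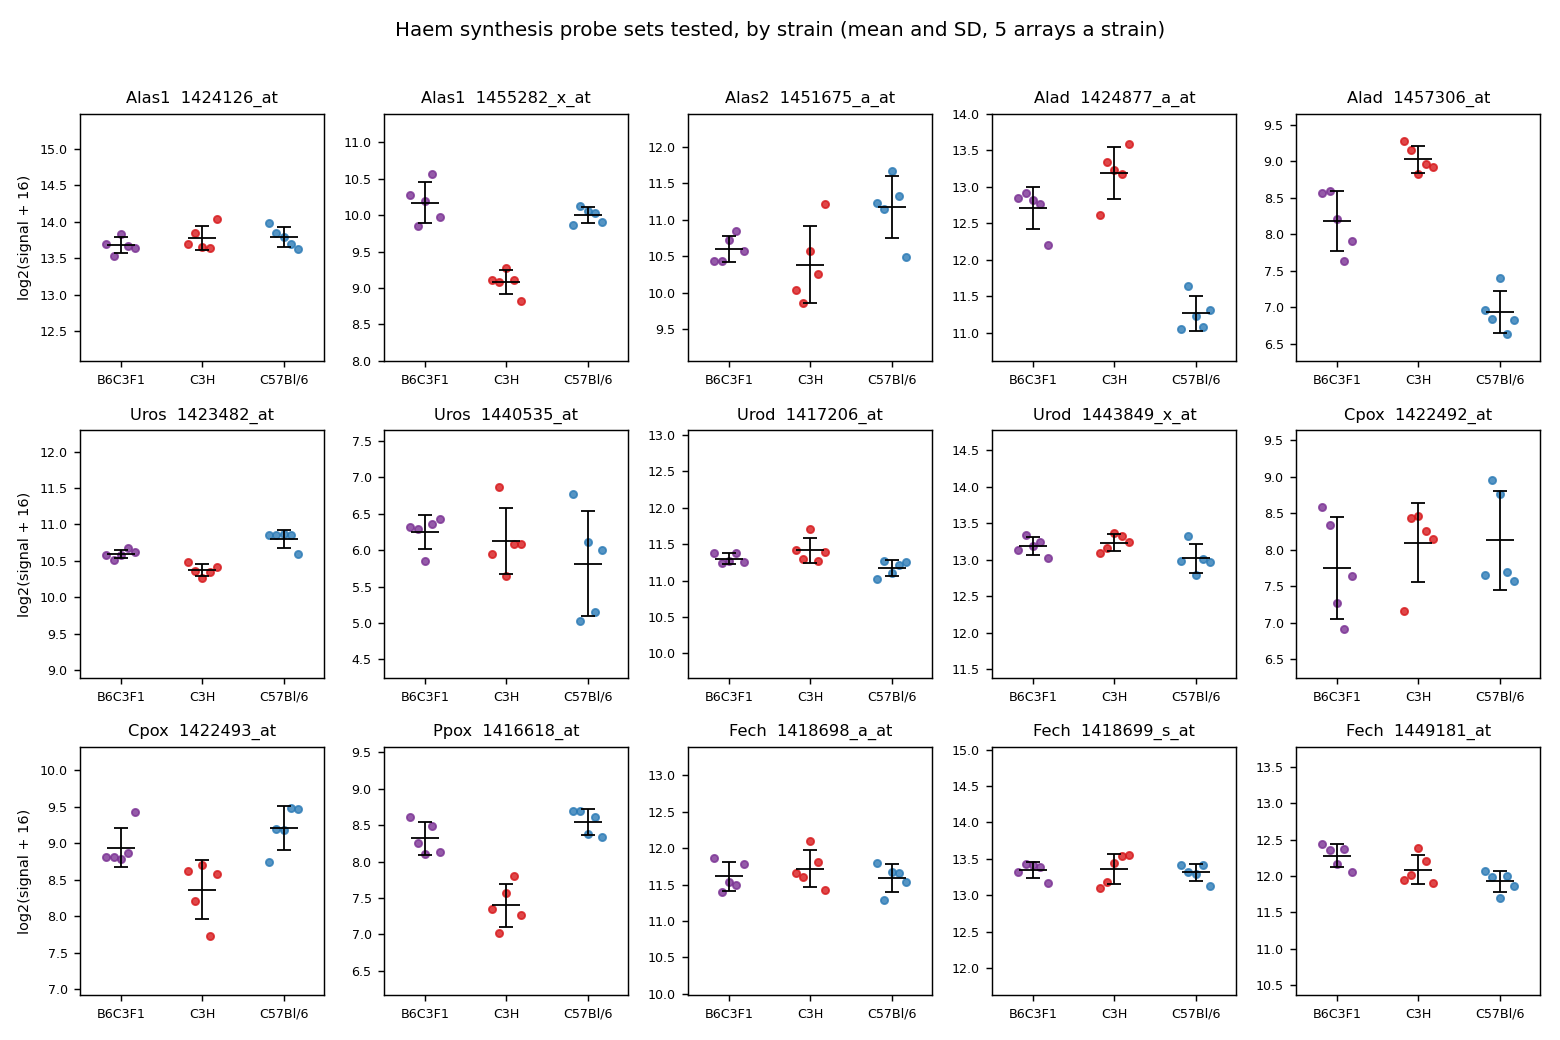
Level of each tested probe set in log2(signal + 16), 1 panel a probe set, with 5 arrays a strain as points and the mean and SD as bars. Each panel has its own range. The Alad panels show C57Bl/6 hearts below the other two kinds without overlap, and the Ppox panel shows C3H hearts below the other two kinds without overlap.

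Alas1, the first and usually rate-limiting enzyme outside red cells, gave different pictures on its pair of probe sets. On 1424126_at, the brighter one, the means were 13.68 ± 0.11 in B6C3F1, 13.77 ± 0.17 in C3H and 13.79 ± 0.14 in C57Bl/6 (SD, n = 5), and the strains overlapped. The difference of C3H minus C57Bl/6 was -0.02 (95% interval -0.21 to 0.18, limma adjusted p = 0.934). No comparison passed on this probe set.
On 1455282_x_at, whose design can match more than one transcript, Alas1 read 10.28, 9.85, 10.19, 10.57 and 9.97 in B6C3F1 hearts, 9.11, 9.09, 9.28, 9.11 and 8.82 in C3H hearts, and 9.86, 10.12, 10.06, 10.03 and 9.90 in C57Bl/6 hearts. All C3H arrays lay below all arrays of the other two kinds, which overlapped each other. The C3H level was 1.88-fold below C57Bl/6 (difference -0.91, SE 0.13, adjusted p = 3.20e-05). The B6C3F1 level was 2.13-fold above C3H (1.09, SE 0.13, adjusted p = 1.10e-05). B6C3F1 minus C57Bl/6 was 0.18 (95% interval -0.09 to 0.44, adjusted p = 0.483) and did not pass. With the strain means subtracted, the pair of Alas1 probe sets had a correlation of -0.14 over the 15 arrays. The strain difference was thus seen on the dimmer probe set alone, and the places of the probes in the transcript were not analysed here.

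Alas2, the form of the first enzyme used by red cell precursors, has 1 probe set, 1451675_a_at. It read 10.44, 10.43, 10.71, 10.84 and 10.57 in B6C3F1 hearts, 10.03, 9.86, 10.57, 10.25 and 11.21 in C3H hearts, and 11.23, 11.15, 11.66, 11.32 and 10.49 in C57Bl/6 hearts. The strains overlapped: 1 C3H array reached the C57Bl/6 levels, and 1 C57Bl/6 array lay among those of C3H. The fall in C3H was 1.72-fold (difference -0.79, SE 0.21, adjusted p = 0.0166). This call was lost without C3H replicate 2 (-0.65, adjusted p = 0.0532) and without C57Bl/6 replicate 3 (-0.66, adjusted p = 0.0577). It was also lost with the Gapdh 3 prime over 5 prime signal, a sign of RNA integrity, in the model (-0.68, adjusted p = 0.0592). B6C3F1 lay 0.57 below C57Bl/6 (adjusted p = 0.149) and 0.21 above C3H (adjusted p = 0.671), and neither passed.
Since Alas2 marks red cell precursors, red cell markers were read beside it. Of 16 such genes, 10 had a probe set with 1 symbol and 6 passed the dimness filter, and 0 of the 6 was called in any of the 3 comparisons between the kinds of mice. Over all genes tested, 6.97% were higher and 8.06% lower in C3H than in C57Bl/6. For B6C3F1 the shares were 1.92% higher and 1.56% lower against C57Bl/6, and 3.38% and 2.43% against C3H. A list of 6 cannot be set closely against such shares, so the absence of calls says little about red cell content. The mean level of the 6 ran from 6.32 to 7.36 in B6C3F1 hearts, from 6.19 to 6.90 in C3H hearts and from 6.15 to 7.10 in C57Bl/6 hearts. The brightest was Hbb-b2, a beta globin, at 9.03 ± 0.61 in B6C3F1, 8.70 ± 0.89 in C3H and 8.74 ± 0.57 in C57Bl/6. Hba-a2, Klf1, Gata1 and Tspo2 had strain means between 5.46 and 6.49, near the filter at 5.74. The mean level of the 6 thus rests in good part on dim probe sets, which limits what a correlation with it can show. Epb42, Hemgn, Rhag and Hba-a1 lay below the filter, and globin probe sets annotated with several symbols were not analysed here. With strain means subtracted, Alas2 and the mean red cell level had a Pearson r of 0.24 (permutation p = 0.41) and a Spearman rho of 0.41 (permutation p = 0.146) over 15 arrays. The r was 0.25 without the pair of arrays farthest from the median. Single markers, each by its brightest probe set, differed among themselves, with r from -0.44 for Hba-a2 to 0.51 for Hbb-b2. The part of red cells in the Alas2 difference was not tested further.

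Alad joins pairs of aminolevulinate into porphobilinogen, and it differed most among the 8 genes. Its brighter probe set, 1424877_a_at, read 12.84, 12.92, 12.82, 12.77 and 12.20 in B6C3F1 hearts, 12.62, 13.35, 13.23, 13.18 and 13.58 in C3H hearts, and 11.06, 11.64, 11.22, 11.08 and 11.31 in C57Bl/6 hearts. All C57Bl/6 arrays lay below every other array, while B6C3F1 and C3H overlapped through the lowest C3H array. On the linear scale the mean signal was 6778 in B6C3F1, 9558 in C3H and 2467 in C57Bl/6. C3H was 3.81-fold above C57Bl/6 (difference 1.93, SE 0.16, adjusted p = 2.58e-08). B6C3F1 was 2.73-fold above C57Bl/6 (1.45, SE 0.16, adjusted p = 1.13e-05). The difference of B6C3F1 minus C3H was -0.48 (95% interval -0.82 to -0.15, adjusted p = 0.0933) and was not called, but it was called without C3H replicate 1, the lowest of the C3H arrays (-0.63, adjusted p = 0.0141).
The dimmer probe set, 1457306_at, read 8.56, 8.59, 8.21, 7.63 and 7.90 in B6C3F1 hearts, 9.28, 9.16, 8.82, 8.96 and 8.93 in C3H hearts, and 6.96, 6.84, 7.40, 6.64 and 6.82 in C57Bl/6 hearts. Here the 3 kinds of mice did not overlap at all. C3H was 4.29-fold above C57Bl/6 (2.10, SE 0.19, adjusted p = 8.82e-08), and B6C3F1 was 2.38-fold above C57Bl/6 (1.25, SE 0.19, adjusted p = 0.000613). B6C3F1 was 1.80-fold below C3H (-0.85, SE 0.19, adjusted p = 0.00965). Over all alternatives run, the difference of C3H minus C57Bl/6 stayed between 1.83 and 2.07 on the brighter probe set and between 1.74 and 2.25 on the dimmer one. Once strain means were subtracted, the pair had a correlation of 0.07 over the 15 arrays.

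**Figure D2:**
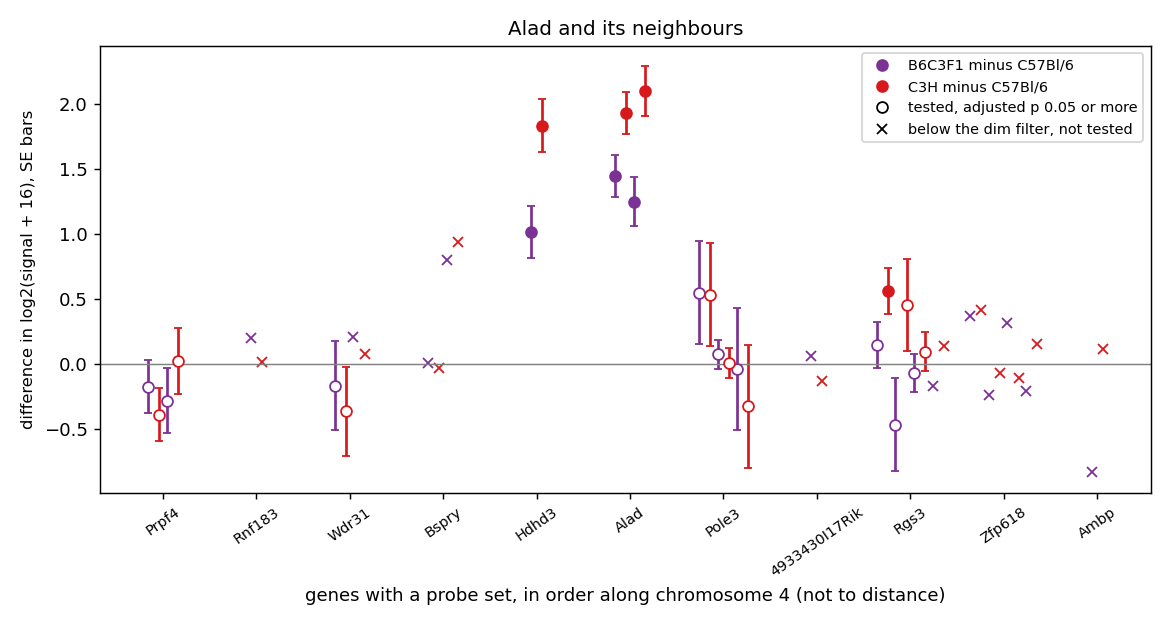
Difference from C57Bl/6 in log2(signal + 16) with SE bars, for Alad and the 5 nearest genes with a probe set on each side along chromosome 4, in order but not to distance. Filled points passed at an adjusted p under 0.05, open points were tested and did not pass, and crosses lay below the dimness filter. Hdhd3, next to Alad, stood at 1.02 in B6C3F1 and 1.83 in C3H. Pole3, on the other side of Alad, shows no filled point, and Bspry, on the far side of Hdhd3, was not tested.

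Genes beside Alad on chromosome 4 were read the same way. The 10 nearest genes with a probe set, 5 on each side, had 21 probe sets, of which 10 from 5 genes were tested. Between C3H and C57Bl/6, 2 of the 5 genes were higher and 0 lower by their brightest probe set, against 6.97% and 8.06% of the 13107 genes tested. Hdhd3, which encodes a protein of the haloacid dehalogenase family and lies next to Alad, read 8.34, 8.30, 8.16, 8.60 and 8.55 in B6C3F1 hearts, 9.00, 9.35, 8.98, 9.46 and 9.25 in C3H hearts, and 7.68, 6.59, 7.23, 7.35 and 8.02 in C57Bl/6 hearts. As with the dimmer Alad probe set, the 3 kinds of mice did not overlap. Hdhd3 was 3.56-fold above C57Bl/6 in C3H (1.83, SE 0.20, adjusted p = 1.41e-06) and 2.02-fold above it in B6C3F1 (1.02, SE 0.20, adjusted p = 0.00642). B6C3F1 was 1.76-fold below C3H (-0.82, SE 0.20, adjusted p = 0.0195).
The gene next to Alad on the other side, Pole3, a small subunit of DNA polymerase epsilon, had means of 10.34 in B6C3F1, 10.27 in C3H and 10.26 in C57Bl/6 on its brightest probe set, with a difference of 0.01 for C3H minus C57Bl/6 (adjusted p = 0.973). Rgs3, a regulator of G protein signalling, was 1.48-fold higher in C3H on its brightest probe set (0.56, SE 0.18, adjusted p = 0.0370), with overlapping arrays, and did not pass on the other tested ones. Prpf4, a splicing factor, and Wdr31 did not pass. Bspry, on the far side of Hdhd3, lay below the filter and had means of 5.68 ± 0.84 in B6C3F1, 5.82 ± 0.93 in C3H and 4.88 ± 0.29 in C57Bl/6 on its brighter probe set.

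Uros, which closes the ring as uroporphyrinogen III, was slightly lower in C3H on the brighter of its tested probe sets. On 1423482_at it read 10.59, 10.52, 10.58, 10.68 and 10.62 in B6C3F1 hearts, 10.49, 10.37, 10.26, 10.35 and 10.42 in C3H hearts, and 10.86, 10.85, 10.87, 10.86 and 10.59 in C57Bl/6 hearts. The C3H arrays lay below all others, and B6C3F1 overlapped C57Bl/6 only through C57Bl/6 replicate 5. The fall in C3H was 1.34-fold (-0.43, SE 0.09, adjusted p = 0.00186). It was not called once each array was centred on its median (-0.30, adjusted p = 0.0971). B6C3F1 lay 0.21 below C57Bl/6 (adjusted p = 0.194) and 0.22 above C3H (adjusted p = 0.179), and neither passed although its arrays did not overlap those of C3H. The other probe set, 1440535_at, was dim, at 6.25 ± 0.23 in B6C3F1, 6.12 ± 0.45 in C3H and 5.81 ± 0.72 in C57Bl/6, and passed no test.

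Urod, which trims side chains of the ring to give coproporphyrinogen, did not pass. On 1417206_at its means were 11.30 ± 0.07 in B6C3F1, 11.42 ± 0.17 in C3H and 11.17 ± 0.11 in C57Bl/6, and C3H minus C57Bl/6 was 0.24 (95% interval 0.05 to 0.44, adjusted p = 0.0988). On 1443849_x_at the means were 13.18 ± 0.12 in B6C3F1, 13.24 ± 0.11 in C3H and 13.02 ± 0.20 in C57Bl/6, and the difference was 0.22 (adjusted p = 0.155). Without C57Bl/6 replicate 2, which was the highest of its strain, that probe set was called (0.30, adjusted p = 0.0326). The arrays of the 3 kinds overlapped on both.

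Cpox, the mitochondrial coproporphyrinogen oxidase, was lower in C3H on 1 of its 2 tested probe sets. On 1422493_at it read 8.82, 8.81, 8.78, 8.87 and 9.42 in B6C3F1 hearts, 8.62, 8.20, 8.70, 7.73 and 8.57 in C3H hearts, and 8.74, 9.19, 9.18, 9.48 and 9.47 in C57Bl/6 hearts. Every C3H array lay below every array of the other two kinds, by a small step from the lowest C57Bl/6 array, and B6C3F1 overlapped C57Bl/6. The fall in C3H was 1.80-fold (-0.85, SE 0.19, adjusted p = 0.00371). B6C3F1 minus C3H was 0.58 (SE 0.19, adjusted p = 0.0875) and was called only with the Gapdh signal in the model (0.83, adjusted p = 0.0123). On 1422492_at the spread within strains was wide, with means of 7.75 ± 0.70 in B6C3F1, 8.10 ± 0.54 in C3H and 8.13 ± 0.68 in C57Bl/6, and C3H minus C57Bl/6 was -0.03 (95% interval -0.74 to 0.67, adjusted p = 0.966). The pair of Cpox probe sets had a correlation of -0.17 over the 15 arrays with strain means subtracted.

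Ppox, which oxidises protoporphyrinogen to protoporphyrin, fell most in C3H among the 15 probe sets. On 1416618_at it read 8.61, 8.25, 8.10, 8.49 and 8.13 in B6C3F1 hearts, 7.36, 7.02, 7.56, 7.80 and 7.27 in C3H hearts, and 8.70, 8.70, 8.37, 8.61 and 8.34 in C57Bl/6 hearts. All C3H arrays lay below all others, and B6C3F1 overlapped C57Bl/6. C3H was 2.21-fold below C57Bl/6 (-1.14, SE 0.16, adjusted p = 3.86e-05), and B6C3F1 was 1.89-fold above C3H (0.92, SE 0.16, adjusted p = 0.00131). B6C3F1 minus C57Bl/6 was -0.22 (95% interval -0.56 to 0.11, adjusted p = 0.478). The call for C3H minus C57Bl/6 held under every alternative run that tested this probe set. The fall rests on this probe set alone. On Ppox 1448065_at, below the dimness filter, the C3H mean (6.11 ± 0.81) stood above that of C57Bl/6 (5.16 ± 0.49), with overlapping arrays.

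Fech, the ferrochelatase that inserts iron into protoporphyrin, passed no test on its 3 tested probe sets. For C3H minus C57Bl/6 the differences were 0.13 on 1418698_a_at, 0.05 on 1418699_s_at and 0.16 on 1449181_at, with adjusted p of 0.549, 0.821 and 0.364. On 1449181_at the means were 12.28 ± 0.16 in B6C3F1, 12.09 ± 0.20 in C3H and 11.93 ± 0.15 in C57Bl/6, and B6C3F1 minus C57Bl/6 was 0.35 (95% interval 0.13 to 0.58, adjusted p = 0.0749). Without B6C3F1 replicate 5, the lowest of its kind, that difference was called (0.41, adjusted p = 0.0357). The upper ends of the 95% intervals for C3H minus C57Bl/6 were 0.40, 0.25 and 0.39 in that order of probe sets.

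**Figure D3:**
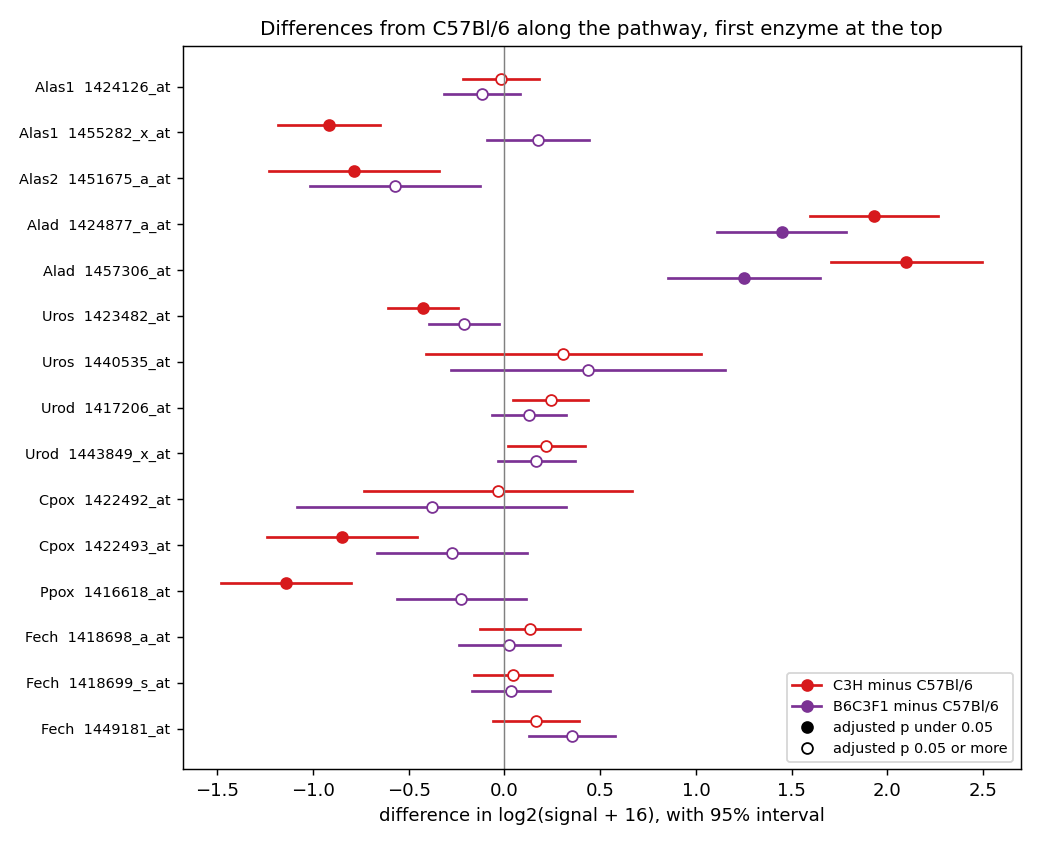
Difference from C57Bl/6 in log2(signal + 16) with 95% intervals for the 15 tested probe sets, in the order of the pathway from top to bottom, with C3H in red and B6C3F1 in purple. Filled points passed at an adjusted p under 0.05. Both Alad rows lie far to the right in both kinds of mice, and the filled points to the left are all C3H.

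Between the hybrid B6C3F1 and C57Bl/6 only Alad was called: 2 of the 15 tested probe sets were higher, both of Alad, and 0 were lower, against 1.71% higher and 1.48% lower over all probe sets. Unadjusted, Alas2, Uros 1423482_at and Fech 1449181_at also had p under 0.05 (0.0145, 0.0269 and 0.00367). Over all probe sets the calls went to 282 higher and 128 lower, against 393 and 341 as deposited, when each array was centred on its median. Against C3H, 2 of the 15 were higher in B6C3F1, Alas1 1455282_x_at and Ppox, and 1 was lower, Alad 1457306_at, beside 3.1% higher and 2.05% lower over all probe sets. After centring, the calls over all probe sets were 392 higher and 535 lower, against 714 and 472 as deposited.

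The place of B6C3F1 between its parents was set at 0 for the C57Bl/6 mean and 1 for the C3H mean, and is given for the 7 probe sets called between the parents, as a description. Alad stood at 0.75 ± 0.15 (SD over 5 arrays, range 0.49 to 0.86) on the brighter probe set and at 0.59 ± 0.20 (0.33 to 0.79) on the dimmer one, on the log2 scale. On the linear signal scale the same arrays stood at 0.61 ± 0.17 and 0.44 ± 0.21, on either side of the middle. The neighbour Hdhd3 stood at 0.55 ± 0.10 on the log2 scale. Alas2 stood at 0.73 ± 0.23, Uros at 0.49 ± 0.14, Cpox 1422493_at at 0.32 ± 0.32 and Ppox at 0.20 ± 0.20. Alas1 1455282_x_at stood at -0.19 ± 0.31, past the C57Bl/6 mean. On the log2 scale the means of Alad and Alas2 lay nearer C3H and those of Ppox, Cpox and Alas1 nearer C57Bl/6, with wide spreads over the 5 arrays. On the linear scale the dimmer Alad probe set lay nearer C57Bl/6.

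**Figure D4:**
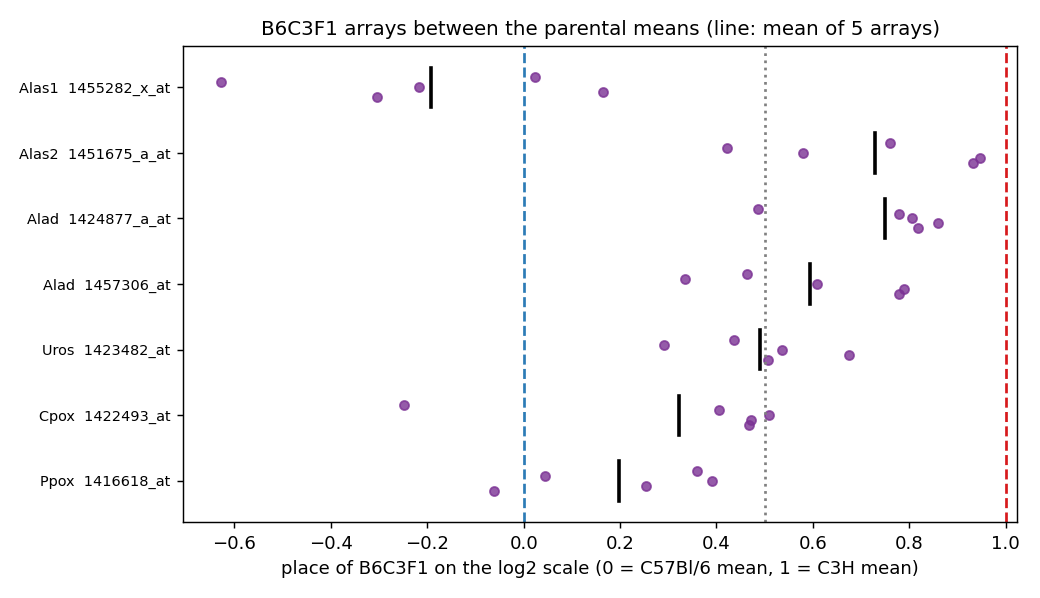
Place of each B6C3F1 array between the parental means on the log2 scale, for the 7 probe sets called between C3H and C57Bl/6, with 0 at the C57Bl/6 mean, 1 at the C3H mean and the dotted line midway. Points are single arrays and the black bars their means. The Alad bars lie at 0.75 and 0.59, and the Alas1 bar lies at -0.19, left of the C57Bl/6 line.

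Against the midparent, halfway between the parental means on the log2 scale, 1 of the 15 probe sets was higher and 0 lower, beside 0.434% and 0.139% over all probe sets. It was Alas1 1455282_x_at (0.63, SE 0.11, adjusted p = 0.00584), on which B6C3F1 averaged 10.17 ± 0.28 while C3H averaged 9.08 ± 0.17 and C57Bl/6 averaged 10.00 ± 0.11. Alad was 0.48 above the midparent on the brighter probe set (SE 0.14, adjusted p = 0.134), and this passed without B6C3F1 replicate 5 (0.61, adjusted p = 0.0344). On the dimmer probe set it was 0.20 (SE 0.16, adjusted p = 0.620). With a midparent taken on the linear scale, the values became 0.18 and -0.15 (adjusted p of 0.622 and 0.743), so that no departure of Alad from the parental mean was shown. Over all probe sets, the linear midparent gave 18 higher and 27 lower, against 100 and 32.

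Other genes of haem and iron handling were read by the brightest probe set of each gene. Of 13 tested partners of haem synthesis, such as mitochondrial carriers, 0 were higher and 2 were lower in C3H than in C57Bl/6, where 6.97% of all genes tested were higher and 8.06% lower. The median difference of the list was -0.12, against -0.02 over all genes. Slc25a38, which carries glycine into mitochondria for the first step, averaged 9.24 ± 0.17 in B6C3F1, 8.91 ± 0.24 in C3H and 9.71 ± 0.19 in C57Bl/6, a 1.74-fold fall in C3H (-0.80, adjusted p = 0.000259). Slc25a37, or mitoferrin 1, which brings iron into mitochondria, averaged 9.46 ± 0.34 in B6C3F1, 9.46 ± 0.47 in C3H and 10.08 ± 0.29 in C57Bl/6 (-0.62 for C3H minus C57Bl/6, adjusted p = 0.0459). Neither list member passed in B6C3F1 against C57Bl/6, where 1.92% of genes were higher and 1.56% lower.
Among 12 tested genes of haem breakdown and transport, 2 were higher in C3H and 0 lower, again beside 6.97% and 8.06% of all genes, with a median of 0.07. Flvcr1, a haem and choline transporter, was 1.52-fold higher (0.61, adjusted p = 0.0382), and Blvra, a biliverdin reductase, was 1.26-fold higher (0.34, adjusted p = 0.0162). Hmox1, the inducible haem oxygenase, was dim and variable, at 6.37 ± 0.76 in B6C3F1, 6.40 ± 0.24 in C3H and 5.91 ± 1.01 in C57Bl/6.
Of 12 tested users of haem, 3 were higher in C3H and 2 lower, beside the same 6.97% and 8.06%, with a median of -0.07. Gucy1b1, the haem-binding subunit of soluble guanylate cyclase, was 2.30-fold lower in C3H (-1.20, adjusted p = 0.000503), and Cat, the catalase, was 1.34-fold lower (-0.42, adjusted p = 0.0372). Hccs, which attaches haem to cytochromes c, was 1.81-fold higher (0.86, adjusted p = 9.68e-07), and the globin Cygb and the oxidase subunit Cybb were 1.60-fold and 1.43-fold higher (adjusted p = 0.00357 and 0.0237). Hccs averaged 12.86 ± 0.13 in B6C3F1, 12.86 ± 0.14 in C3H and 12.01 ± 0.12 in C57Bl/6, and was the 1 gene of these lists called in B6C3F1 against C57Bl/6 (0.85, adjusted p = 8.31e-06).
Of 10 tested iron genes, 1 was lower in C3H, a share near the 8.06% of all genes, with a median of -0.18. It was Hfe, a regulator of iron uptake, which averaged 11.01 ± 0.23 in B6C3F1, 10.42 ± 0.20 in C3H and 11.38 ± 0.11 in C57Bl/6 (-0.97, adjusted p = 5.24e-06). Of 8 tested regulators of Alas1 and sensors of haem, 1 was lower, also near that share, with a median of -0.15. It was Eif2ak1, the haem-regulated kinase of translation (-0.48, adjusted p = 0.0114). Against C3H, where 3.38% of genes were higher and 2.43% lower in B6C3F1, Gucy1b1 (0.76, adjusted p = 0.0451) and Hfe (0.60, adjusted p = 0.00335) were higher and Cybb (-0.59, adjusted p = 0.0214) was lower.

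The tissue markers matched a heart sample: 9 heart muscle genes averaged 15.65 ± 0.21 in B6C3F1, 15.55 ± 0.16 in C3H and 15.72 ± 0.18 in C57Bl/6, and 0 of the 9 was called in any comparison between the kinds of mice. Between C3H and C57Bl/6, 1 of 2 tested atrial genes was higher (Myl4, 1.16), 1 of 4 endothelial genes was lower (Cdh5, -0.56), 2 of 4 fibroblast genes were higher (Tcf21, 0.76, and Dcn, 0.41), and of 4 macrophage genes 1 was higher (Cd68, 0.77) and 1 lower (Adgre1, -0.62). The endothelial genes not called also had negative differences (Pecam1 -0.68, Tie1 -0.54, Kdr -0.41). Of the fibroblast genes not called, Col1a1 went the other way (-0.50) and Pdgfra stood at 0.06. Myl7 (0.37) and the macrophage genes Csf1r (-0.26) and C1qa (0.02) were not called either. Over all genes tested, 6.97% were higher and 8.06% lower in that comparison, and lists this short cannot be set closely against such shares. In B6C3F1, Tcf21 was higher than in C57Bl/6 (0.52, adjusted p = 0.0106), beside 1.92% of all genes higher and 1.56% lower. Against C3H, Cdh5 (0.70) and the macrophage gene Csf1r (0.50) were higher in B6C3F1, and Myl4 (-0.78) was lower. The shares over all genes there were 3.38% higher and 2.43% lower. Fabp4 and S100b, the only tested genes of the fat and nerve sheath lists, did not pass. The other genes of these lists were not tested, so the lists say little about those cells. Poly-A control RNAs added during labelling averaged 8.54 ± 0.12 in B6C3F1, 9.19 ± 0.65 in C3H and 8.58 ± 0.59 in C57Bl/6, and the Gapdh 3 prime minus 5 prime signal averaged 0.90 ± 0.21 in B6C3F1, 0.60 ± 0.26 in C3H and 0.85 ± 0.24 in C57Bl/6. The part of cell makeup in the differences of the 8 genes was not tested. With the poly-A level in the model, each of the 15 probe sets kept its side of the threshold in every comparison. With the Gapdh signal in the model, Alas2 was no longer called between C3H and C57Bl/6, and Cpox 1422493_at was newly called between B6C3F1 and C3H.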

How the data were processed

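The authors deposited 1 log2 value per probe set and array. The submitters' processing notes name MAS5, with no version given. The log2 step and the scaling are not stated. Both were inferred: after undoing the log, the 2% trimmed mean lay between 500.26 and 500.28 on each array. Array medians of the deposited log2 values were 6.02, 6.10, 6.27, 6.13 and 6.12 in B6C3F1, 5.93, 6.13, 5.98, 6.16 and 6.02 in C3H, and 6.25, 6.14, 6.08, 6.38 and 6.00 in C57Bl/6. Whether any other step was applied stays unknown. No pair of arrays held identical values.

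The log was undone, a pseudocount of 16 was added to each signal, and the log2 was taken again. Probe sets came from the GEO platform annotation: 34940 had 1 symbol, 932 several and 9160 none given, and 64 were controls. Sets with a mean below the 40th percentile (5.74) were left out. The rest were fitted with limma 3.58.1 in R 4.3.3 (lmFit, eBayes with an intensity trend), all 15 arrays in one fit, with Benjamini-Hochberg adjustment over the 23037 probe sets. Adjusted p-values are from this fit unless an alternative is named beside them. The fit was also run on simulated data, whose results are not given here. B6C3F1 was compared with C57Bl/6, with C3H and with the midparent, and C3H with C57Bl/6. Folds are on the log2(signal + 16) scale and understate the change of dim sets. The number of arrays limits the precision.

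Every probe set of the 8 genes is described. From each list of other genes, up to 5 called genes were named for C3H minus C57Bl/6 and up to 3 for each B6C3F1 contrast. Neighbours of Alad are the 5 nearest genes with a probe set on each side. Hmox1, Cd68 and other markers were named beside these rules, after their values were seen. The 8 genes and the lists were chosen with earlier results of these data known. Gene order along the chromosome came from the GRCm38.p6 gene table, and the array values name no build. Sample numbers run in 1 block per strain, so that handling order and strain cannot be told apart. Alternatives were the pseudocount (1 and 64), the dim filter (none, 60th percentile), quantile normalization, median centring, the brightest probe set per gene, leaving out _x_at and _s_at sets, no intensity trend, only the strains compared, a replicate block, Gapdh and poly-A covariates, a linear midparent and leaving out each array.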

Additional observations from a re-analysis of the deposited data

Results flagged for a closer look

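In 5 of 45 groups of 5 arrays (15 tested probe sets in 3 kinds of mice), 1 array stood apart from its nearest neighbour by more than 0.71 of the group's range, where chance marks about 1 in 20 groups. Alad 1424877_a_at read 12.20 in B6C3F1 replicate 5, with the next array of that kind at 12.77. Cpox 1422493_at read 9.42 in the same mouse, B6C3F1 replicate 5, with the next at 8.87. Uros 1423482_at read 10.59 in C57Bl/6 replicate 5, with the next at 10.85, and was the array that overlapped B6C3F1. Uros 1440535_at, a dim probe set, read 5.85 in B6C3F1 replicate 3, with the next at 6.29. Cpox 1422492_at read 7.16 in C3H replicate 1, with the next at 8.15. B6C3F1 replicate 5 thus carried 2 of the 5 values, 1 low and 1 high.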

How the results depend on the processing

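Of 1636 refits of a member's difference, 1578 kept direction and side of the threshold, 48 changed sign without being called in either fit, 5 fell short of it, 5 newly passed it and 0 called differences reversed. Alternatives such as the dim filters, no intensity trend and the replicate block leave the difference itself unchanged. The same holds for leaving out an array of a strain outside the comparison. In those refits only the adjusted p could move, so the count of kept directions overstates how far direction was tried. Beside the cases given with their genes above, Alas2 fell short without an intensity trend (-0.79, adjusted p = 0.0507). The replicate block left the counts of called member probe sets at 7 for C3H minus C57Bl/6, 2 for B6C3F1 minus C57Bl/6, 3 for B6C3F1 minus C3H and 1 for B6C3F1 minus midparent. Same-numbered arrays deviated together by r from -0.0607 to 0.106, and an array correlated best with its own number in 6 of 30 lookups, so the numbers were not taken to pair the arrays; the block changed no call of a member probe set. With only the brightest probe set of each gene, the counts were 1 for B6C3F1 minus C57Bl/6, 1 for B6C3F1 minus C3H and 0 for the midparent, since fewer probe sets of these genes were tested. Without _x_at and _s_at sets the midparent count was 0, since the Alas1 set is one of them. Leaving out single arrays gave midparent counts of 1 to 2. Over all probe sets, B6C3F1 minus C57Bl/6 had 734 calls, 410 after median centring, 418 without a trend and 402 to 1277 without single arrays. The midparent contrast had 132 calls, 85 after centring, 45 on the linear midparent and 85 to 314 without single arrays. With brightest sets it had 83, over 13107 probe sets tested in place of 23037. B6C3F1 minus C3H had 1186 calls and 618 with the poly-A covariate. C3H minus C57Bl/6 had 3147 of 23037, and 2052 of 13107 with brightest sets. Counts with brightest sets are over fewer probe sets and are not like for like with the others. The cause of the other changes was not tested. No detection calls were used, so how far each signal lay above background is not known here.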

Other observations

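The 4 probe sets of these genes below the dimness filter were not tested. Cpox 1440747_at averaged 5.60 ± 0.88 in B6C3F1, 5.15 ± 0.86 in C3H and 5.28 ± 0.58 in C57Bl/6. Ppox 1441862_at averaged 5.10 ± 0.63 in B6C3F1, 5.21 ± 0.76 in C3H and 5.40 ± 0.35 in C57Bl/6, and Ppox 1448065_at averaged 5.84 ± 0.58 in B6C3F1, 6.11 ± 0.81 in C3H and 5.16 ± 0.49 in C57Bl/6. On 1448065_at the C3H mean thus stood above that of C57Bl/6, the opposite direction to the tested Ppox probe set, 1416618_at. Fech 1427696_at averaged 4.74 ± 0.47 in B6C3F1, 4.63 ± 0.60 in C3H and 4.81 ± 0.58 in C57Bl/6. The arrays of the 3 kinds overlapped on each of the 4.

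With strain means subtracted, the genes whose brightness most resembled that of Alad 1424877_a_at over the 15 arrays were Timp2, Sdhaf4, Rps15, Fcf1 and Znrd2 (Pearson r from 0.95 to 0.96). For Alas2 they were Tent5c (0.94), Txnrd3 (0.86), Slc4a1, the red cell anion exchanger (0.85), Odf2 (0.83) and Cd24a (0.83). These are the highest of 23037 probe sets and so are high by choice, and they are given as descriptions over arrays that share their labelling and scaling. Of the 6 tested red cell markers, by their brightest probe sets, Alas2 had an r of 0.51 with Hbb-b2, 0.50 with Slc4a1, 0.38 with Klf1, -0.02 with Tspo2, -0.12 with Gata1 and -0.44 with Hba-a2. Alad 1424877_a_at had an r of 0.75 with Slc4a1, 0.74 with Hbb-b2, 0.17 with Tspo2, 0.07 with Klf1, 0.04 with Hba-a2 and -0.32 with Gata1. On the brightest probe sets of Slc4a1 and Hbb-b2 the values were thus larger with Alad than with Alas2, a difference that was not tested. For Slc4a1 this depends on the probe set read. The r of 0.85 between Alas2 and Slc4a1 came from another Slc4a1 probe set, whose r with Alad is not given here.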
